A study of Mus musculus with 46 samples.

Results

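The 49 genes described here drive or mark the cell cycle in dividing mouse cells: the machinery that licenses and copies DNA, the cyclins and cyclin-dependent kinases, the transcription factors of cycling cells, and the kinases, motors and kinetochore proteins of mitosis. They were chosen by symbol, and all 49 were found, both among the 37108 genes of the gene table and among the 35976 genes of the transcript table after transcripts were summed per gene. All 49 also passed the filter on low values (at least 1 FPKM in at least 2 samples), which kept 16842 and 12456 genes. FPKM are fragments per kilobase of gene model, scaled to the fragments mapped in the library.

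RNA was sequenced from mouse embryonic fibroblasts (MEF) infected with retroviruses for Oct4 together with either native Nanog (NanogWT) or a Nanog that carries at its N-terminus the piece of SS18 that binds BRG1, a chromatin remodelling ATPase (NanogBiD, NanogN70 in the labels). Every time-course sample therefore received Oct4 and a Nanog protein, and the MEF came from E13.5 embryos of OG2 fathers, whose Oct4-GFP transgene reports pluripotent cells, and 129 mothers. Day 0 (D0) was the end of infection, and 7 further days up to D12 were sampled (1, 3, 5, 7, 8, 10 and 12). The medium was iCD3 reprogramming medium from D0 and was changed to N2B27 with 2i and LIF at about D7. There were 2 samples per combination and day, except 1 for NanogBiD at D8. The same table held 2 uninfected MEF samples and 1 mouse embryonic stem cell (mES) sample, from OG2 embryos. The transcript table held 6 samples of induced pluripotent stem cells (iPSC) per combination, labelled iPSC1 or iPSC2, with the MEF and mES. Both iPSC and mES were grown without feeders in the 2i and LIF medium. The labels do not say what iPSC1 and iPSC2 stand for, and they are called lines 1 and 2 here. Samples 1 and 1-2 of NanogWT iPSC1 share the number 1 in their labels, which do not say what the sample numbers mean. The labels do not say that replicates were separate cultures, so p-values measure only the spread between these samples, which may be technical.

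As background, a cell commits to division in G1, when D-type cyclins with Cdk4 or Cdk6, and then E-type cyclins, lead to phosphorylation of the retinoblastoma family and release E2F transcription factors. E2F targets include the MCM helicase and its loaders Cdc6 and Cdt1, which license replication origins, and the enzymes that make nucleotides and DNA. Genes of G2 and mitosis are switched on later through Mybl2 (B-Myb), Foxm1 and NF-Y, with E2F and DREAM complexes repressing many of them in resting cells. Pluripotent stem cells are known for a short G1, and fibroblasts for a long G1 that depends on D-type cyclins.

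The promoters are shown because sites for E2F and NF-Y can be searched for in their letters. A RefSeq window of 300 bases (GRCm38.p6, from 250 before to 50 after the transcription start) was given for 37 of the 49 genes, and none for Tpx2, Pole, Ccnd2, Ccnd1, Mcm4, Gins2, Gins1, Kif20a, Foxm1, Aurkb, Ccne2 and Ccna2. Both strands were searched for CCAAT, the box that NF-Y binds, and for TTTGAA, a spelling of the cell cycle genes homology region (CHR) of G2 and mitosis genes. They were also searched for an E2F core, written TTCCCGC or TTCGCGC or TTGGCGC or TTGCCGC. Other spellings of the CHR were not searched, so that CHR below stands for TTTGAA alone, and a gene without it may hold another spelling. The windows shown are those of the most highly expressed licensing gene, Mcm7, and of the most highly expressed cyclin of the S to M phases, Ccnb1. That of Cdc20 was added after the values were seen, as an example with a CHR. Capitals mark the matches, and the E2F core TTGGCGC overlaps a CCAAT on the opposite strand where the letters GCGCCAAT stand in the window.
Mcm7, chr5:138171834-138172133, minus strand: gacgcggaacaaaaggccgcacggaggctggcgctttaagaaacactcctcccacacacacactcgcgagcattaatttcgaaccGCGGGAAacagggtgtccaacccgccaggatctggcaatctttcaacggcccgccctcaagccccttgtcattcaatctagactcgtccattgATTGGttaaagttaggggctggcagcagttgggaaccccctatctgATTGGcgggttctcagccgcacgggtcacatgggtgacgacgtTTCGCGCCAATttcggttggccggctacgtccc
Ccnb1, chr13:100786437-100786736, minus strand: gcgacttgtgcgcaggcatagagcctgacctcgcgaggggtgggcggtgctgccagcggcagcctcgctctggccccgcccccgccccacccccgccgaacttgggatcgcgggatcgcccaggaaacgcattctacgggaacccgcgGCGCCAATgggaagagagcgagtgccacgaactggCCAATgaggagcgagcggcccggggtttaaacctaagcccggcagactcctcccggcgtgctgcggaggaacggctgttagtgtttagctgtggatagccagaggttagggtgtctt
Cdc20, chr4:118437294-118437593, minus strand: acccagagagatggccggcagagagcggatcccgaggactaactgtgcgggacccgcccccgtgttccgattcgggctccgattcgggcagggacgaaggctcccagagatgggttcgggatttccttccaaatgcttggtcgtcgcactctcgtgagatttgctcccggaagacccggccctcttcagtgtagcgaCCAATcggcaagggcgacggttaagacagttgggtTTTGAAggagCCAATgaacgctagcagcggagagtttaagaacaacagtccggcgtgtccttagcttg

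The Mcm7 window shown, 1 of the 2 given for this gene, held 3 E2F cores, 2 of which overlap each other, 3 CCAAT boxes and no CHR. In Ccnb1 a CCAAT began 99 bases and another 67 bases before the start, the first of them overlapping its E2F core. TTTGAA was absent from it, and other spellings of the CHR were not searched. In Cdc20 the CHR began 18 bases before the start, between a CCAAT 53 and another 8 bases before it. Of the licensing genes with a window, 6 of 7 held an E2F core and 1 of 7 a CHR (Mcm2). Of the mitotic kinase and checkpoint genes none of 7 held an E2F core, while 5 of 7 held a CHR and 6 of 7 a CCAAT, and of the kinetochore, spindle and cytokinesis genes none of 6 held an E2F core and 4 of 6 a CHR. Other groups were less divided. Of the S to M cyclins and Cdk1, 2 of 3 held an E2F core and 2 of 3 a CHR. Of the DNA synthesis genes 2 of 5 held an E2F core and none a CHR. Of the G1 and G1/S genes none of 4 held either, and of the transcription factors 1 of 3 held each. Top2a and Mki67 both held a CHR, and 1 of the 2 an E2F core. Among all 32851 windows 9.57% held an E2F core, 17.9% a CHR and 37.4% a CCAAT, and 6.95% held a CHR together with a CCAAT. Over the 37 genes, any window counted, these shares were 32.4%, 40.5%, 70.3% and 40.5%, beside 10.9%, 20.2%, 41.1% and 7.97% of the 27025 genes counted in the same way. A match is a description of letters and shows no binding.

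The libraries were alike in depth up to D7. Relative depth, read from the steps between low values, was 0.872 to 1.1 over the 20 libraries of D0 to D7 and 0.810 to 1.02 for NanogBiD from D8 on, but 1.85 to 3.18 for NanogWT from D8 on, so that from D8 depth and combination cannot be told apart. The labelled cell types matched their markers: the summed level of 10 fibroblast markers was 5932 to 6861 FPKM in MEF and 8.35 in mES, and that of 10 pluripotent cell markers 11.5 to 14.0 in MEF, with 7 of the 10 at 0 in both samples, and 3915 in mES. Of the 49 genes, 17 share exon bases with another gene in GENCODE M21, and for these the reads of the overlapping stretch are uncertain, since the use of strand is not given in the sources used here.

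Most calls between the combinations came from D7 on. At this day 30 of the 49 genes (61.2%) were called higher with NanogBiD (limma on log2(FPKM + 1), with an adjusted p below 0.05 together with a difference of 1 or more in log2 units) and 0 lower, beside 5.79% and 4.65% of the 16842 genes tested. The median log2 difference (NanogBiD minus NanogWT) over the 49 genes was 1.18, and over all genes tested 0.08. By D10 the count was 38 higher and 0 lower, beside 15.4% and 12.3% of all genes, with a median of 2.23. At D12 it was 37 higher and 1 lower, beside 13.5% and 9.97%, with a median of 1.59. At D8, where the single NanogBiD sample allows no test, 41 genes were at least 1 higher on the log2 scale and 0 at least 1 lower, beside 13.7% and 10.1% of all genes. Of the 30 genes called at D7, 28 were called at both D10 and D12. Cell type markers differed at this day too, as they had before it. At D7 the summed level of the 10 fibroblast markers was 1683 to 1756 FPKM with NanogWT and 886 to 1103 with NanogBiD. That of the 10 pluripotent cell markers was 15.9 to 17.1 and 127 to 141. At D3 the fibroblast sums were 1433 to 1445 and 814 to 914, and the pluripotent sums 6.36 to 7.22 and 15.6 to 21.7. Postn, 1 of the fibroblast markers, made up most of the fibroblast sums at D7, with means of 1036 and 632 FPKM, beside 135 in MEF. In bulk samples fewer cells of a type and less RNA per cell cannot be told apart, and the part of the cell mixture in the differences of the 49 genes was not tested.

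Before D7 few calls were made. None of the 49 genes was called at D0, beside 0.422% higher and 0.338% lower of all genes, or at D1, beside 0.368% and 0.962%. At D3 0 were higher and 1 lower, beside 1.25% and 2.45%, and at D5 2 were higher and 1 lower, beside 3.2% and 3.28%. By limma's unadjusted p under 0.05, 2668 of all 16842 genes passed at D0 and 2266 at D1. In levels, both NanogBiD samples lay above both NanogWT samples for 36 of the 49 genes at D1, beside 26% of all genes, for 31 at D5, beside 38.4%, and for 45 at D7, beside 36.4%. At D0 and D3 they did so for 15 genes each, where the share of all genes was not counted. Both lay below for 3 genes at D0, 2 at D1, 4 at D3, 7 at D5 and 3 at D7. The share of all genes lying below was not counted on any day, so these counts and those of D0 and D3 cannot be set against all genes. No p-value belongs to these counts. The median log2 differences of the 49 genes at D1 and D5 were 0.38 and 0.25, beside 0.02 and 0.08 over all genes.

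**Figure D1:**
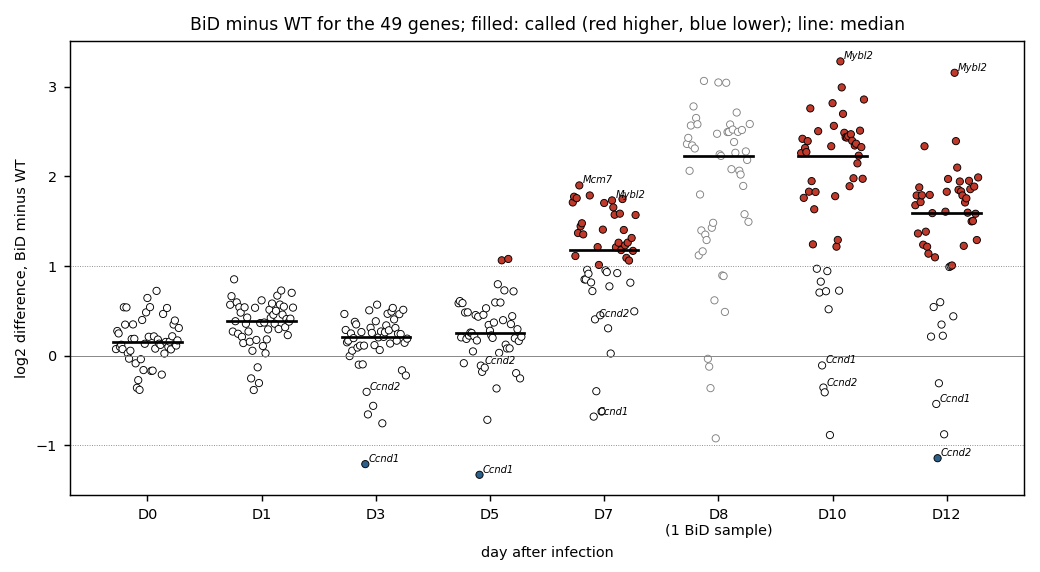
Log2 difference of NanogBiD minus NanogWT, on log2(FPKM + 1), for each of the 49 genes (points) by day after infection, with the median as a line. Filled points were called, red for higher and blue for lower, D8 has 1 NanogBiD sample and no test, and dotted lines mark a difference of 1. The median rises from 0.25 at D5 to 1.18 at D7 and 2.23 at D10, while Ccnd1 lies at -1.21 at D3 and -1.33 at D5, and Ccnd2 at -1.14 at D12.

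**Figure D2:**
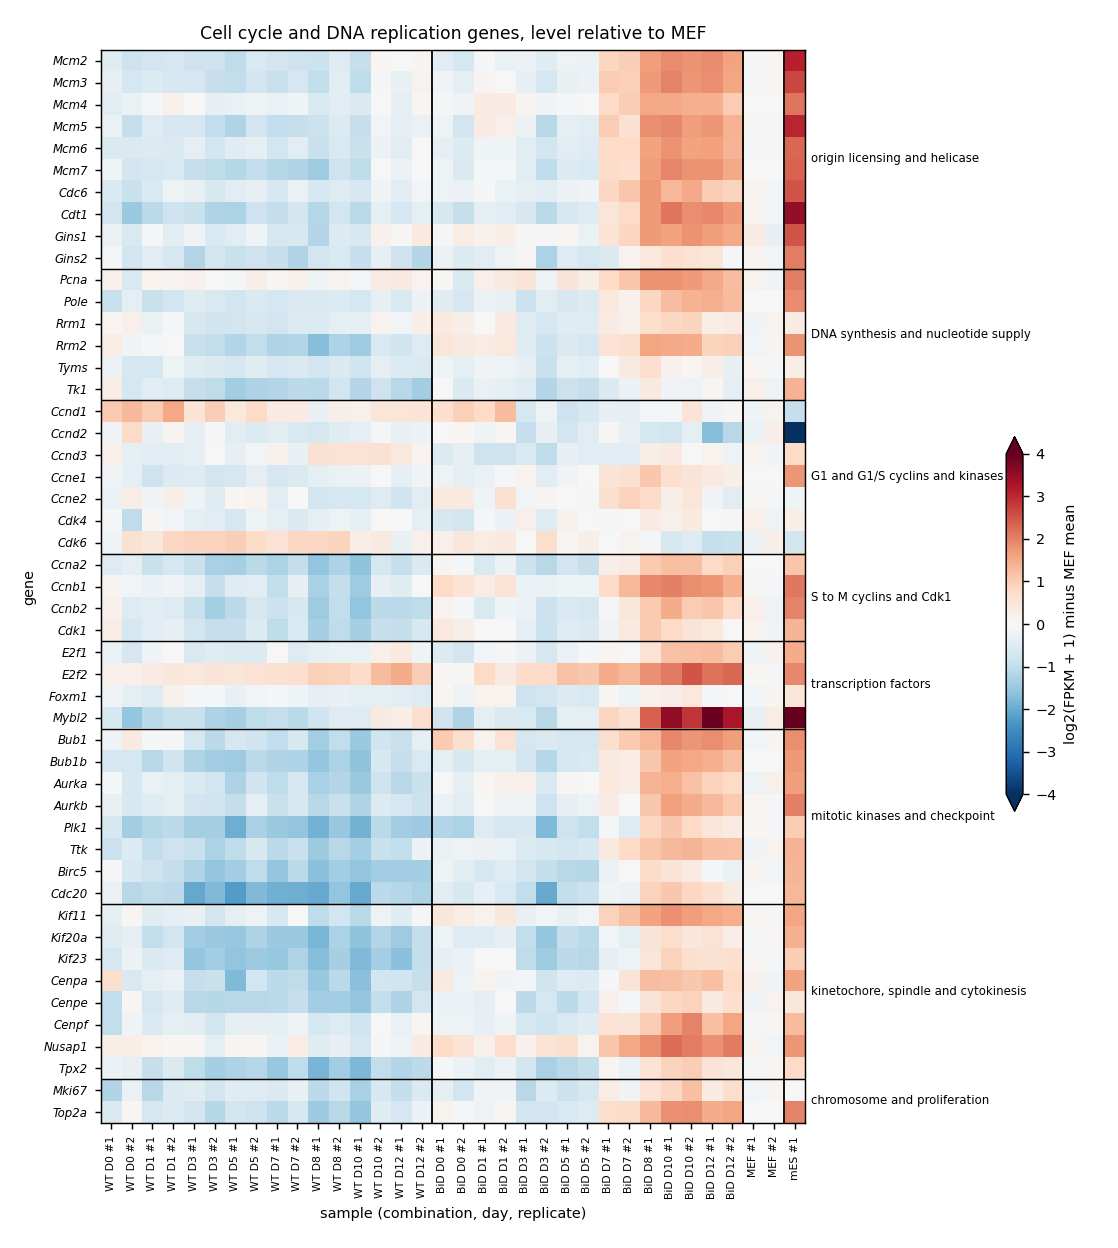
Level of the 49 genes (rows, grouped by role) in each time-course, MEF and mES sample (columns, with the replicate after the #), as log2(FPKM + 1) minus the mean of the 2 MEF samples. The colour scale ends at -4 and 4. Blue, below MEF, prevails with NanogWT and red, above MEF, with NanogBiD from D7 on.

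The origin licensing and helicase group held 10 genes. At D7, 9 of the 10 were higher with NanogBiD, with a median log2 difference of 1.46, and at D10 and D12 all 10 were, with medians of 2.26 and 1.70. Mcm7 (chr5:138164583-138172422), a subunit of the hexameric MCM helicase, had the highest mean level of them over the time course, and shares up to 247 exon bases with neighbouring genes. With NanogWT, Mcm7 stood at 23.1 and 15.1 on D0, 15.9 and 16.8 on D1, 13.3 and 12.4 on D3, 11.4 and 12.7 on D5, 11.3 and 10.8 on D7, 9.25 and 14.5 on D8, 12.6 and 25.7 on D10, and 22.1 and 25.8 on D12, in FPKM. With NanogBiD, Mcm7 stood at 22.7 and 17.1 on D0, 25.6 and 24.8 on D1, 19.1 and 12.4 on D3, 17.6 and 16.8 on D5, 44.99 and 42.7 on D7, 85.5 on D8, 104 and 94.3 on D10, and 92.9 and 77.5 on D12. Levels overlapped at D0 and met at D3, both NanogBiD samples were higher at D1 and D5, and from D7 every NanogBiD sample lay above every NanogWT sample of the course. The log2 difference was 1.9 (SE 0.26, adjusted p = 1.8e-05) at D7, the largest of the 49 genes at that day, and 1.79 (SE 0.26, adjusted p = 1.2e-05) at D12. MEF were at 26.7 and 25.8 and mES at 137, so that the NanogBiD samples were above both MEF samples from D7, and no NanogWT sample exceeded the higher of the MEF samples.

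The other helicase subunits Mcm2, Mcm3 and Mcm5 differed by 1.71, 1.77 and 1.76 at D7. Cdt1, which loads the helicase, differed by 1.48 at D7 and 2.34 at D12, and Cdc6, its partner in loading, by 1.44 and 1.24. Gins1, part of the GINS complex that activates the helicase, differed by 1.35 at D7, and Gins2 of the same complex reached 0.85 (SE 0.34, adjusted p = 0.070) and was not called at that day.

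Of the 6 genes of DNA synthesis and nucleotide supply, 1 was called higher at D7, 3 at D10 and 4 at D12. Rrm2, the regulated subunit of ribonucleotide reductase, was the one called at D7, with means of 79.2 FPKM with NanogBiD and 22.2 with NanogWT and a log2 difference of 1.79 (SE 0.21, adjusted p = 2.4e-06). Pcna, the sliding clamp of the DNA polymerases, had the highest level of the group. With NanogWT, Pcna ran at 67.6 and 38.6 on D0, 66.8 and 65.5 on D1, 68.4 and 59.5 on D3, 58.7 and 72.7 on D5, 61.7 and 67.2 on D7, 53.3 and 66.2 on D8, 56.7 and 75.4 on D10, and 76.7 and 65.7 on D12. With NanogBiD, Pcna ran at 62.2 and 40.1 on D0, 68.8 and 77.5 on D1, 86.5 and 53.4 on D3, 85.6 and 71.1 on D5, 105 and 129.8 on D7, 209 on D8, 212 and 198 on D10, and 175 and 142 on D12. The combinations overlapped at D0, D3 and D5, every NanogBiD sample from D7 on was above every NanogWT sample of the course, and MEF were at 65.7 and 54.9. The D7 difference of 0.85 (SE 0.26, adjusted p = 0.017) missed the limit of 1, and D10 gave 1.63 (SE 0.26, adjusted p = 2.1e-05). Rrm1, the other reductase subunit, and Tyms, thymidylate synthase, were called at none of D7, D10 and D12, with largest differences of 0.97 at D10 and 0.82 at D7.

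The 7 G1 and G1/S cyclins and kinases behaved otherwise. At D7, 2 were called higher (Ccne1 and Ccne2) and 0 lower, at D10 0 in either direction, and at D12 0 higher and 1 lower (Ccnd2), and the median log2 difference of the 7 was 0.41 at D7, -0.11 at D10 and -0.31 at D12. No member of this group passed the test at D10, although 3 of the 7 had an adjusted p under 0.05.

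Ccnd1 (chr7:144929931-144939925), cyclin D1, links growth factor signals to Cdk4 and Cdk6. With NanogWT, Ccnd1 stood at 127 and 152 on D0, 126 and 179.9 on D1, 89.4 and 122 on D3, 82.6 and 105 on D5, 77.2 and 77.3 on D7, 50.3 and 72.2 on D8, 70.9 and 86.7 on D10, and 85.6 and 87.7 on D12. With NanogBiD, Ccnd1 stood at 98.1 and 119 on D0, 107 and 148 on D1, 37.4 and 53.02 on D3, 34.01 and 39.3 on D5, 48.9 and 46.8 on D7, 58.8 on D8, 59.8 and 88.2 on D10, and 56.03 and 62.9 on D12. Both combinations were above the MEF (55.9 and 67.4) at D0 and D1. At D3 and D5 every NanogBiD sample was under every NanogWT sample and under both MEF samples. The log2 difference was -1.21 (SE 0.24, adjusted p = 0.0021) at D3 and -1.33 (SE 0.24, adjusted p = 0.00052) at D5, the one gene of the 49 called lower at either day. Without NanogBiD D3 replicate 1 the D3 difference was -0.96 (adjusted p = 0.048) and without NanogWT D3 replicate 2 it was -0.99 (adjusted p = 0.053), and the call was lost in both cases and when the D3 groups were fitted alone (adjusted p = 0.22). Fitted alone, the D3 groups gave 0 calls over all genes tested. At D7 the Ccnd1 difference was -0.68 (SE 0.24, adjusted p = 0.038), at D12 -0.54 (SE 0.24, adjusted p = 0.067), and not called.

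Ccnd2 (chr6:127125162-127152193), cyclin D2, is close to absent from mES (0.195 FPKM) and abundant in MEF (132 and 188). With NanogWT, Ccnd2 stood at 142 and 267 on D0, 127 and 168 on D1, 119.6 and 152 on D3, 117 and 107 on D5, 115 and 103 on D7, 97.5 and 113 on D8, 123 and 151 on D10, and 127 and 134 on D12. With NanogBiD, Ccnd2 stood at 157 and 165 on D0, 140.1 and 164 on D1, 82.9 and 124 on D3, 94.3 and 114 on D5, 161 and 128 on D7, 96.2 on D8, 95.2 and 119 on D10, and 47.7 and 72.2 on D12. The groups overlapped on each of the first 4 days sampled, and at D12 both NanogBiD samples were below every other time-course sample. The D12 difference was -1.14 (SE 0.26, adjusted p = 0.0011), which became -0.85 (adjusted p = 0.033) without NanogBiD D12 replicate 1 and was then under the limit of 1. From D7 to D12 the change with NanogBiD differed from that with NanogWT by -1.55 (SE 0.37, adjusted p = 0.0044). Even at D12 the NanogBiD samples were far above the mES sample.

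Ccnd3, cyclin D3, went the other way between cell types, with 141 FPKM in mES and 90.5 and 72.7 in MEF. With NanogWT, Ccnd3 stood at 92.6 and 63.5 on D0, 58.3 and 60.02 on D1, 64.7 and 81.9 on D3, 64.5 and 75.3 on D5, 91.8 and 65.5 on D7, 123 and 121 on D8, 122 and 124 on D10, and 108 and 89.2 on D12. With NanogBiD, Ccnd3 stood at 55.7 and 61.8 on D0, 44.9 and 45.4 on D1, 53.2 and 39.5 on D3, 63.8 and 59.1 on D5, 58.9 and 58.5 on D7, 94.8 on D8, 105 and 81.3 on D10, and 89.8 and 70.03 on D12. Both combinations were higher from D8 than at D1, and the largest difference in size over D7, D10 and D12 was -0.41 (SE 0.20, adjusted p = 0.087), not called.

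The E-type cyclins, which with Cdk2 start S phase, were called higher with NanogBiD at D7 alone of the days tested. With NanogWT, Ccne1 stood at 17.4 and 14.9 on D0, 10.5 and 12.9 on D1, 13.1 and 11.1 on D3, 11.8 and 14.5 on D5, 11.6 and 12.6 on D7, 14.3 and 15.8 on D8, 16.3 and 19.1 on D10, and 14.5 and 16.8 on D12. With NanogBiD, Ccne1 stood at 16.7 and 14.6 on D0, 15.98 and 18.8 on D1, 21.5 and 14.2 on D3, 17.5 and 19.2 on D5, 28.6 and 30.00 on D7, 42.1 on D8, 31.3 and 28.01 on D10, and 25.7 and 22.6 on D12. Every NanogBiD sample from D7 on was above every NanogWT sample of the course, MEF were at 19.2 and 19.3 and mES at 68.4. The Ccne1 difference was 1.21 (SE 0.17, adjusted p = 2.3e-05) at D7 and 0.6 (SE 0.17, adjusted p = 0.0065) at D12, under the limit of 1 at the later day.

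With NanogWT, Ccne2 stood at 5.49 and 8.57 on D0, 6.01 and 8.24 on D1, 6.03 and 4.64 on D3, 7.22 and 7.63 on D5, 4.69 and 6.94 on D7, 3.65 and 3.89 on D8, 3.86 and 4.53 on D10, and 3.503 and 4.79 on D12. With NanogBiD, Ccne2 stood at 9.39 and 9.37 on D0, 5.97 and 10.9 on D1, 6.26 and 7.41 on D3, 6.72 and 6.64 on D5, 11.3 and 13.9 on D7, 12.3 on D8, 8.16 and 9.86 on D10, and 6.19 and 4.87 on D12. Its levels with NanogBiD at D7 and D8 were above those of MEF (7.18 and 6.52) and mES (6.01) and were below both MEF samples at D12. The difference was 1.01 (SE 0.24, adjusted p = 0.0032) at D7, and from D7 to D12 Ccne2 fell with NanogBiD by 1.06 on the log2 scale (adjusted p = 0.0012).

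Neither kinase was called on any day. Cdk4, the main partner of D-type cyclins, was among the most abundant of the 49 genes. With NanogWT, Cdk4 stood at 190.4 and 96.9 on D0, 200.5 and 182 on D1, 150.1 and 146 on D3, 122 and 171 on D5, 149 and 131 on D7, 149 and 170.1 on D8, 148 and 192 on D10, and 192 and 152 on D12. With NanogBiD, Cdk4 stood at 126 and 117 on D0, 183 and 166 on D1, 228 and 137 on D3, 221 and 198 on D5, 191 and 192 on D7, 245 on D8, 228 and 257 on D10, and 198 and 201 on D12. The NanogWT samples at D0 enclosed both NanogBiD samples, and the largest difference over D7, D10 and D12 was 0.52 (SE 0.25, adjusted p = 0.090).

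With NanogWT, Cdk6 stood at 5.52 and 10.4 on D0, 9.25 and 12.5 on D1, 12.9 and 13.2 on D3, 13.9 and 11.4 on D5, 10.2 and 12.2 on D7, 12.3 and 12.8 on D8, 7.98 and 8.57 on D10, and 5.16 and 7.66 on D12. With NanogBiD, Cdk6 stood at 7.68 and 9.27 on D0, 8.25 and 8.78 on D1, 6.42 and 11.2 on D3, 6.84 and 7.76 on D5, 6.51 and 7.28 on D7, 6.17 on D8, 3.83 and 4.22 on D10, and 2.92 and 3.04 on D12. Cdk6, the other D-type cyclin partner, was lower with NanogBiD than in every NanogWT sample of the same day from D1 on, by -0.88 (SE 0.24, adjusted p = 0.0037) at D10 and -0.88 (SE 0.24, adjusted p = 0.0045) at D12, which passed the p but not the limit of 1. MEF were at 5.36 and 7.84 and mES at 3.52.

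**Figure D3:**
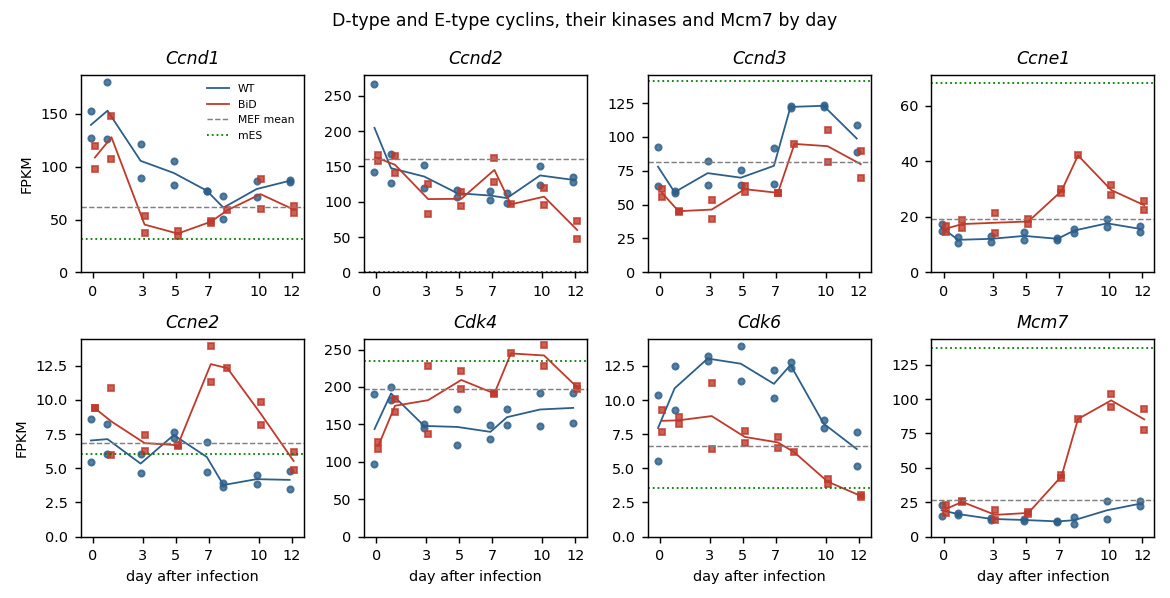
FPKM by day after infection of the D-type and E-type cyclins, Cdk4, Cdk6 and, for contrast, Mcm7. Blue circles are NanogWT samples, red squares NanogBiD samples, lines join the daily means, and the dashed grey and dotted green lines give the MEF mean and the mES sample. Mcm7 with NanogBiD climbs from D7 to between 77.5 and 104 FPKM at D10 and D12, while Ccnd2 with NanogBiD ends at 47.7 and 72.2.

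Genes of the S to M cyclins and Cdk1 were called in the same direction as the licensing genes. Of these 4, 2 were called higher at D7, 4 at D10 and 3 at D12, and none lower. Ccnb1 (chr13:100778650-100786570), cyclin B1, activates Cdk1 at the entry to mitosis. With NanogWT, Ccnb1 stood at 29.4 and 25.4 on D0, 23.2 and 24.6 on D1, 20.7 and 13.9 on D3, 19.3 and 19.7 on D5, 13.4 and 21.6 on D7, 10.6 and 13.8 on D8, 9.48 and 21.4 on D10, and 19.3 and 27.9 on D12. With NanogBiD, Ccnb1 stood at 46.8 and 39.98 on D0, 33.9 and 40.9 on D1, 22.5 and 22.4 on D3, 24.00 and 23.7 on D5, 47.4 and 70.3 on D7, 107 on D8, 113 and 102 on D10, and 95.6 and 75.4 on D12. The NanogBiD samples were above those of NanogWT on every day, with the ranges close at D3 and D5 and far apart from D7. The difference was 1.7 (SE 0.29, adjusted p = 0.00016) at D7 and 2.82 (SE 0.29, adjusted p = 1.2e-07) at D10. Ccna2, cyclin A2, differed by 1.41 at D7. Cdk1 itself reached 0.93 (SE 0.27, adjusted p = 0.013) at D7 and 0.99 at D12, just under the limit on both days, and was called at D10.

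Among the 4 transcription factors, Mybl2 (chr2:163054687-163084688), which drives genes of G2 and mitosis, stood apart from Foxm1, which acts beside it. With NanogWT, Mybl2 stood at 3.45 and 1.35 on D0, 2.28 and 2.68 on D1, 2.72 and 1.91 on D3, 1.75 and 2.400 on D5, 2.64 and 2.24 on D7, 2.996 and 3.84 on D8, 3.84 and 7.803 on D10, and 7.35 and 9.62 on D12. With NanogBiD, Mybl2 stood at 2.92 and 1.97 on D0, 4.36 and 3.58 on D1, 3.55 and 2.17 on D3, 4.27 and 4.35 on D5, 11.5 and 9.44 on D7, 35.3 on D8, 79.6 and 48.95 on D10, and 106 and 64.4 on D12. Levels of both combinations were below both MEF samples (4.62 and 7.404) up to D5, the NanogBiD samples were above both NanogWT samples of the day at D1, D5 and D7, overlapped them at D0 and D3, and were above every NanogWT sample of the course from D8, and mES were at 177. The difference was 1.73 (SE 0.32, adjusted p = 0.00041) at D7, 3.28 (SE 0.32, adjusted p = 7.4e-08) at D10 and 3.15 (SE 0.32, adjusted p = 1.4e-07) at D12, the largest of the 49 genes at the last 2 of these days.

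With NanogWT, Foxm1 stood at 18.6 and 15.6 on D0, 14.4 and 23.9 on D1, 20.3 and 20.4 on D3, 16.9 and 19.1 on D5, 20.1 and 18.4 on D7, 16.2 and 16.8 on D8, 15.5 and 16.1 on D10, and 15.1 and 14.4 on D12. With NanogBiD, Foxm1 stood at 22.2 and 17.97 on D0, 22.9 and 23.1 on D1, 11.4 and 11.9 on D3, 14.1 and 13.4 on D5, 21.5 and 17.8 on D7, 23.5 on D8, 25.4 and 28.3 on D10, and 20.01 and 20.7 on D12. Foxm1, the factor of these 4 with the highest mean over the time course, was not called on any day. Its difference was 0.02 (SE 0.16, adjusted p = 0.95) at D7 and 0.73 (SE 0.16, adjusted p = 0.00092) at D10. E2f1, an activator of S phase genes, reached 0.31 (adjusted p = 0.30) at D7 and 1.00 at D12, where it was not called because the value lay just under 1, and E2f2 was called at D10 and D12, with 1.01 at D12.

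All 8 mitotic kinase and checkpoint genes were called higher at D10 and at D12, and 7 of them at D7, with median differences of 1.42, 2.46 and 1.84 from D7 to D12. Cdc20 (chr4:118432901-118437352), which activates the anaphase-promoting complex, had the highest level. With NanogWT, Cdc20 stood at 38.8 and 21.1 on D0, 22.3 and 22.3 on D1, 10.5 and 13.1 on D3, 9.21 and 12.9 on D5, 11.5 and 11.4 on D7, 10.9 and 14.9 on D8, 10.7 and 22.2 on D10, and 20.7 and 18.7 on D12. With NanogBiD, Cdc20 stood at 34.8 and 29.4 on D0, 37.2 and 30.4 on D1, 23.2 and 10.7 on D3, 23.4 and 25.1 on D5, 41.9 and 39.6 on D7, 88.95 on D8, 98.4 and 82.6 on D10, and 73.9 and 59.8 on D12. The 2 NanogBiD samples were above both NanogWT samples at D1 and from D5 on, and from D8 also above the MEF (45.6 and 47.6). The difference was 1.08 (SE 0.32, adjusted p = 0.024) at D5 and 1.75 (SE 0.32, adjusted p = 0.00033) at D7. The D5 call was lost without NanogWT D5 replicate 1 (0.85, adjusted p = 0.22), without NanogBiD D5 replicate 1 (1.13, adjusted p = 0.094) and without NanogBiD D5 replicate 2 (1.03, adjusted p = 0.12), and that of Aurka, Aurora kinase A, with 1.06 at D5, was lost without NanogWT D5 replicate 1 (0.85, adjusted p = 0.10). A fit of the D5 groups alone left neither call. Bub1, a checkpoint kinase at the kinetochore, differed by 2.99 at D10 and 2.39 at D12, and Plk1, which acts at mitotic entry and exit, by 1.26 at D7 and 1.83 at D12.

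The 8 kinetochore, spindle and cytokinesis genes were likewise called higher in full at D10 and D12, and 7 of 8 at D7, with medians of 1.2, 2.34 and 1.67. Kif20a, a kinesin of cytokinesis, had the highest mean level and shares up to 977 exon bases with Cdc23. With NanogWT, Kif20a stood at 20.5 and 22.1 on D0, 14.1 and 17.2 on D1, 10.5 and 9.899 on D3, 9.49 and 11.9 on D5, 9.699 and 9.87 on D7, 7.47 and 11.6 on D8, 8.900 and 12.3 on D10, and 10.3 and 14.6 on D12. With NanogBiD, Kif20a stood at 25.9 and 20.2 on D0, 20.8 and 22.9 on D1, 14.4 and 9.22 on D3, 14.5 and 13.2 on D5, 26.7 and 22.1 on D7, 42.2 on D8, 48.4 and 40.4 on D10, and 43.6 and 35.2 on D12. The NanogWT samples were under both MEF samples (27.9 and 30.5) throughout, and those of NanogBiD were above them from D8. The difference was 1.23 (SE 0.22, adjusted p = 0.00032) at D7. Cenpa, the histone H3 variant of centromeres, differed by 1.26 at D7 and Kif11, which separates the spindle poles, by 1.40.

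Top2a, topoisomerase II alpha, which untangles chromosomes, and Mki67, the gene of the proliferation marker Ki-67, made up the last group. With NanogWT, Top2a stood at 24.02 and 38.01 on D0, 22.6 and 24.7 on D1, 21.2 and 15.8 on D3, 21.3 and 20.1 on D5, 17.2 and 22.7 on D7, 12.5 and 16.1 on D8, 11.7 and 25.8 on D10, and 22.2 and 30.7 on D12. With NanogBiD, Top2a stood at 40.4 and 35.2 on D0, 31.5 and 38.2 on D1, 21.2 and 20.9 on D3, 23.3 and 25.1 on D5, 59.9 and 61.2 on D7, 90.2 on D8, 131 and 134 on D10, and 104 and 109.6 on D12. Top2a with NanogBiD was above both MEF samples (36.5 and 36.1) from D7 on, every NanogWT sample from D1 on was below them, and the difference was 1.57 (SE 0.26, adjusted p = 0.00014) at D7 and 2.86 (SE 0.26, adjusted p = 3.2e-08) at D10. Mki67 was not called at D7, with 0.49 (SE 0.29, adjusted p = 0.23), and was called at D10 and D12, with 1.29 at D12.

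Over these 3 days, 41 of the 49 genes were called higher at D7, D10 or D12. The 8 called higher at none were Rrm1, Tyms, Foxm1 and 5 of the 7 G1 and G1/S genes, namely Ccnd1, Ccnd2, Ccnd3, Cdk4 and Cdk6.

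**Figure D4:**
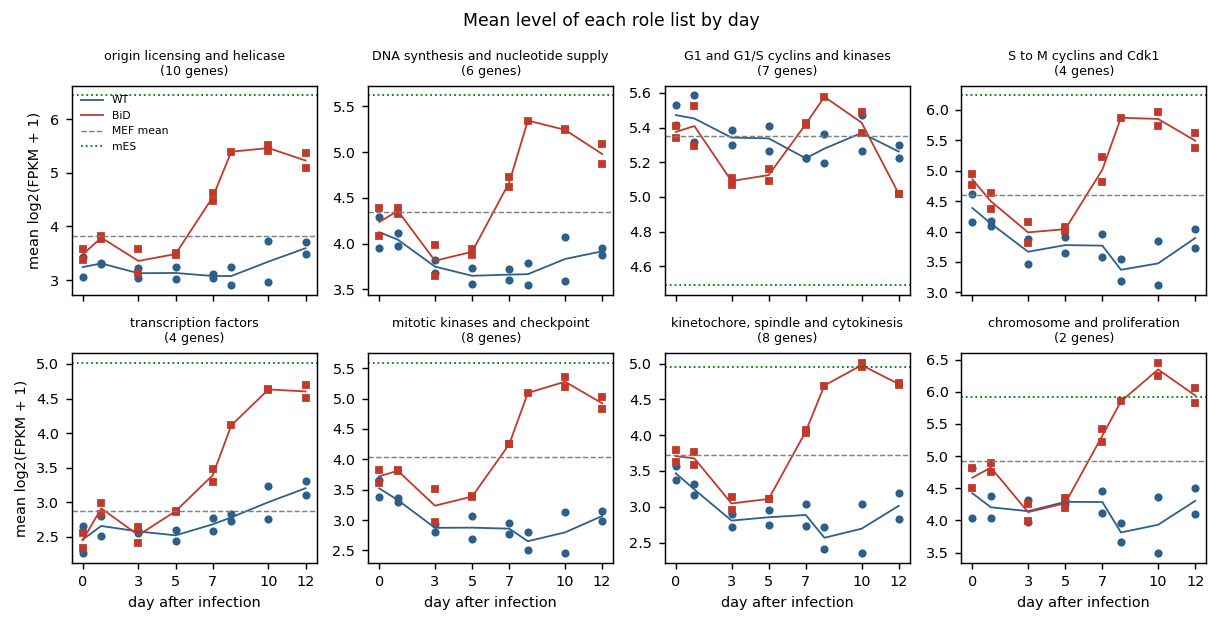
Mean log2(FPKM + 1) over the genes of each of the 8 role groups by day after infection, 1 point per sample, with NanogWT in blue and NanogBiD in red, lines through the daily means, and the MEF mean and mES sample as dashed and dotted lines. Vertical axes differ between panels and do not start at 0. In 7 groups every red point from D7 on is above the blue points of its day, as it also is at D1, and in the G1 and G1/S group the red points are above the blue at D7 and D8 and below them at D0, D3, D5 and D12.

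Each combination was next followed over time. With NanogWT, 0 of the 49 genes were higher and 4 lower at D7 than at D0 (Rrm2, Cdc20, Kif20a and Cenpa, by -1.25, -1.25, -1.05 and -1.04), beside 12% and 5.69% of all genes tested. The count lower was 9 without NanogWT D0 replicate 2 and 7 without NanogWT D7 replicate 2. Cdc20 lost its call without NanogWT D0 replicate 1 (-0.83, adjusted p = 0.086), and Kif20a came under the limit without NanogWT D0 replicate 2 (-0.998, adjusted p = 0.0073). With NanogBiD, 10 were higher and 1 lower over the same days, beside 12.7% and 6.15%. Over all genes these shares depended on the scaling, with 2135 higher and 1036 lower with NanogBiD and 2018 and 959 with NanogWT, but 1386 and 1497 and 1545 and 1292 after quantile normalization, where 8 and 1 of the 49 genes were called with NanogBiD and 0 and 9 with NanogWT. These 10 were 7 of the 10 licensing genes, Pcna, E2f2 and Mybl2, led by Mybl2 (1.74), Mcm2 (1.51) and Cdt1 (1.40), and the 1 was Ccnd1 (-1.16). None of the S to M cyclins and Cdk1, the mitotic kinases and checkpoint or the kinetochore, spindle and cytokinesis genes was among them, while 16 such genes were among the 30 called between combinations at D7. Those 10 genes are 20.4% of the 49, beside 12.7% of all genes.

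The course with NanogBiD had its low point before D7. Over the daily means, 23 of the 49 genes were lowest at D3 and 12 at D5, and 16 were highest at D8 and 27 at D10. With NanogWT, 26 were lowest at D8 and 22 highest at D0. A comparison of D7 with D5 was therefore added after the values were seen. With NanogBiD, 17 of the 49 genes (34.7%) were higher at D7 than at D5 and 0 lower, beside 2.07% and 0.511% of all genes, led by Bub1, Ttk, a spindle checkpoint kinase, and Mcm7. The change of Bub1 was 1.52 (SE 0.25, adjusted p = 0.00083), and those of the other two were 1.3 each. Without NanogBiD D5 replicate 1 the 17 became 10, and with these groups fitted alone they became 0 (adjusted p = 0.093 for Bub1). The fit of these groups alone called 0 of all 16842 genes in either direction. With NanogWT, 0 of the 49 genes passed in either direction over the same days, beside 0.0653% and 0% of all genes. Here limma's unadjusted p was under 0.05 for 684 of all 16842 genes.

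Whether the combinations differed in their change was tested directly. From D0 to D7 the change of 18 genes (36.7%) was higher with NanogBiD and that of 0 lower, beside 5.2% and 4.88% of all genes. Mcm7 led with 1.83 (SE 0.37, adjusted p = 0.0018), followed by Mcm5 (1.66) and Mybl2 (1.65). Leaving out NanogWT D7 replicate 1 or NanogBiD D0 replicate 2 reduced the 18 to 9, and Mybl2 lost its call without any one of 4 libraries, NanogBiD D7 replicate 1 (adjusted p = 0.065), NanogWT D0 replicate 1 (0.097), NanogBiD D0 replicate 2 (0.079) or NanogWT D7 replicate 2 (0.060). From D5 to D7 it was higher for 5 genes (Bub1, Ttk, Mcm6, Rrm2 and Cdc6), with a median over the 49 genes of 0.88, and lower for 0, beside 1.01% and 0.249% of all genes. That count was 0 without NanogWT D5 replicate 2, NanogWT D7 replicate 1, NanogBiD D5 replicate 2 or NanogBiD D7 replicate 2, 1 without NanogBiD D5 replicate 1 and 2 without NanogWT D5 replicate 1. From D7 to D12 it was higher for Mybl2 (1.42) and Aurkb (1.02), 2 genes, and lower for 1, Ccnd2, beside 6.78% and 7.33%. The 2 higher calls were lost without NanogBiD D12 replicate 1 and without NanogWT D7 replicate 2, and the adjusted p of Mybl2 ran from 0.052 to 0.16 in the 5 cases in which leaving out 1 library ended its call.

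Within NanogBiD, 5 genes were higher at D12 than at D7 and 2 lower, beside 11.6% and 8.37% of all genes. Mybl2 (2.88), Cdt1 (1.19) and E2f1 (1.08) led, with Pole and Aurkb, and Ccnd2 (-1.28) and Ccne2 (-1.06) were lower. Without NanogBiD D12 replicate 1 the 7 calls became 4, E2f1 (0.97) and Ccnd2 (-0.99) among the lost, and Ccne2 came under the limit without NanogBiD D7 replicate 2 (-0.92) or NanogBiD D12 replicate 2 (-0.92). Within NanogWT, Mybl2 (1.46) and Mcm7 (1.05) were higher, 2 genes, and 0 lower, beside 6.66% and 4.62%. Mcm7 lost this call without NanogWT D12 replicate 2 (0.94, adjusted p = 0.049).

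The D0 samples were set against untreated MEF, from which they differ in the virus, the factors expressed and the days in culture, which cannot be told apart. At D0 with NanogWT, 1 gene was higher than in MEF, Ccnd1, by 1.17 (SE 0.24, adjusted p = 0.0014), and 3 were lower (Cdt1, -1.12, Mybl2, -1.09, and Plk1, -1.01), beside 3.71% and 3.03% of all genes (488 higher and 688 lower after scaling to a common total). With NanogBiD, 0 were higher and 2 lower (Plk1, -1.22, and Mybl2, -1.01), beside 5.84% and 5.51%. These comparisons share the MEF samples. The NanogWT calls became 2 without NanogWT D0 replicate 2 and 2 without MEF replicate 2, and the NanogBiD calls 1 without MEF replicate 2. Plk1 with NanogWT also lost its call without MEF replicate 1 (-0.95, adjusted p = 0.11), and a fit of these groups alone left 0 calls with NanogWT. Over all genes tested, that fit with NanogWT called 1 higher and 0 lower. The median log2 difference of the 49 genes was -0.41 with NanogWT and -0.24 with NanogBiD.

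The mES sample gave the level of the genes in pluripotent cells, without a replicate and so without a test. There 45 of the 49 genes were above the MEF mean, 37 of them at least 2 times, with a median ratio of 3.14. Lower in mES were Ccnd2 (0.195 against a MEF mean of 159.8), Ccnd1 (31.7 against 61.6), Cdk6 (3.52 against 6.60) and Ccne2 (6.01 against 6.85). As a share of the mES level, the median of the 49 genes was 24.7% at D0, 16.01% at D7 and 18.2% at D12 with NanogWT, and 28.6%, 41.6% and 65.8% with NanogBiD. At D12 with NanogBiD, 7 genes were at or above the mES level (Ccnd1, Ccnd2, E2f2, Cenpe, Cenpf, Nusap1 and Mki67), and the lowest share was 27.6%.

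Established iPSC were compared in the transcript table, whose levels are not set against those of the gene table. iPSC differed from MEF in 35 of the 49 genes, 34 higher (69.4%) and 1 lower, beside 23.4% and 14.6% of the 12456 genes tested, with a median log2 difference of 1.38 beside 0.31 for all genes. Over all genes 2914 were higher and 1820 lower, against 2158 and 2091 after quantile normalization and 2363 and 2237 with a common total, where 30 and 1 of the 49 genes were called under either. All 10 licensing genes, all 4 S to M cyclins and Cdk1 and all 8 mitotic kinase and checkpoint genes were among the 34. Mybl2 had 5.51 and 9.04 FPKM in MEF and 197 to 317 in the 12 iPSC samples, with a difference of 4.85 (SE 0.15, adjusted p = 3.0e-11). Mcm5, with 2.88 (SE 0.13, adjusted p = 1.8e-09), and Cdt1, with 2.84, followed. None of these 3 genes overlapped between MEF and iPSC.

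The G1 genes again split. Ccne1 was higher in iPSC by 1.5 (SE 0.14, adjusted p = 1.3e-06), at 45.6 to 75.2 FPKM against 21.4 and 23.0 in MEF. Ccnd2 was lower, with 112 and 163 in MEF, 0.187 to 38.4 in the 12 iPSC samples, 0.128 in mES and a difference of -5.52 (SE 0.84, adjusted p = 7.4e-05). Ccnd3, at 92.1 to 304, had a difference of 1.00 that lay just under the limit (adjusted p = 0.010). Ccnd1, at 14.5 to 53.3 against 46.2 and 57.5, overlapped MEF, with -0.61 (SE 0.40, adjusted p = 0.19). Cdk6 and Foxm1 had differences of 0.02 and 0.04 and also overlapped MEF. Outside the G1 group, Rrm1 (0.14, adjusted p = 0.32) and the proliferation marker Mki67 (0.11, adjusted p = 0.50) were not called between iPSC and MEF either. Ccne2, at 1.54 to 3.51 against 3.68 and 3.56, was below both MEF samples in all 12 and was not called (-0.38, adjusted p = 0.13).

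Between the combinations no gene of the 49 was called in iPSC, nor was any of the 12456 genes tested (0% higher and 0% lower by limma, 201 genes at an unadjusted p under 0.05). Over the 49 genes the log2 differences (NanogBiD minus NanogWT) ran from -0.14 to 0.44, with SE of 0.072 to 0.71, and 0 genes had an unadjusted p under 0.05. Mcm7, for one, was at 183 to 232 in the 6 NanogWT and 145 to 241 in the 6 NanogBiD iPSC samples. Between lines 2 and 1, whose passages differ so that line and passage cannot be told apart, 0 of the 49 genes were called, beside 0.377% higher and 0.506% lower of all genes, and E2f2 passed the p alone (0.57, adjusted p = 0.027). By limma's unadjusted p under 0.05, 3059 of all genes passed between lines. The NanogBiD iPSC1 sample 9 was the lowest of the 12 samples for 30 of the 49 genes. It had the highest summed fibroblast markers, 1419 FPKM beside 1.85 to 446.5 in the other 11, and the highest Ccnd2, 38.4 FPKM, and the part of fibroblast RNA in this was not tested. Without this sample 0 of the 49 genes were called between the combinations.

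**Figure D5:**
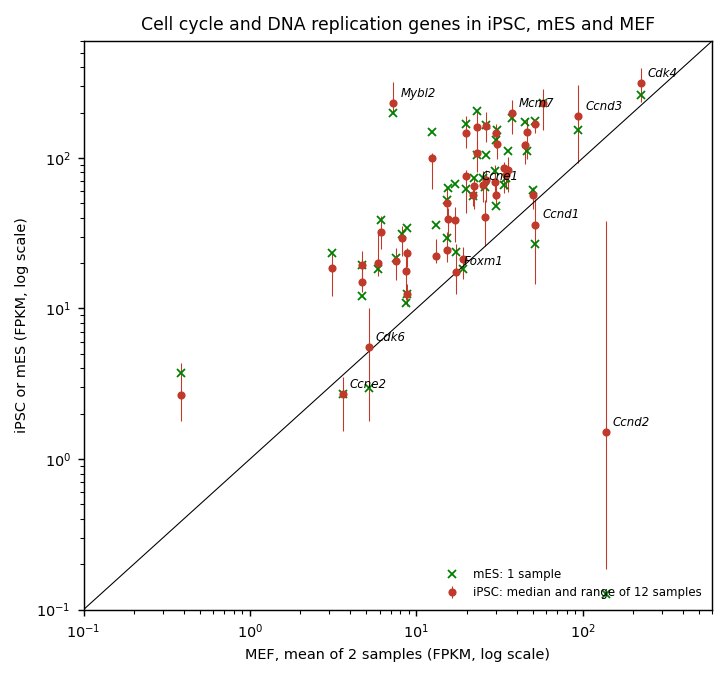
Levels of the 49 genes in iPSC (red, median and range of 12 samples) and mES (green crosses, 1 sample) against the mean of 2 MEF samples, in FPKM of the transcript table on log axes, with the line of equal levels. Most genes lie above the line, Cdk6, Foxm1, Mki67 and Rrm1 nearest to it, Ccnd1 and Ccne2 below it, and Ccnd2 far below, at 0.187 to 38.4 in iPSC.

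Related genes outside the 49 were described from wider lists. Of 39 other mitotic genes, 22 were higher with NanogBiD at D7 and 35 at D12, and none lower, and their median log2 difference was 1.07 at D7. Of all genes tested, beside which each of these lists stands, 5.79% were higher at D7 and 13.5% at D12, and 4.65% and 9.97% lower. Spc24, of the NDC80 kinetochore complex, had 1.83 (adjusted p = 7.3e-05) and Espl1, separase, 1.69 at D7, and Hmmr, which binds spindle microtubules, had 2.4 and Pttg1, securin, 2.2 at D12. Of 36 other replication genes, 12 were higher at D7 and 24 at D12, and none lower, led by Gmnn, geminin, which inhibits Cdt1 (1.69), and the primase Prim1 (1.57) at D7, and by Pold1, of DNA polymerase delta (2.27), and the ligase Lig1 (1.97) at D12. Of 14 pocket protein and other E2F genes, 2 were higher at D7 (E2f5, 1.25, and E2f7, 1.08) and 4 at D12, where E2f5 (1.48) and E2f8 (1.27) led. In iPSC against MEF, 33 of the other replication and 24 of the other mitotic genes were higher and none lower, beside 23.4% and 14.6% of all genes.

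The 7 CDK inhibitors were called in both directions. Of all genes tested, 3.2% were higher and 3.28% lower at D5, and 5.79% and 4.65% at D7. At D10 these shares were 15.4% and 12.3%, and at D12 13.5% and 9.97%. For the change from D7 to D12 they were 11.6% and 8.37% within NanogBiD, and 6.78% and 7.33% between the combinations. Cdkn2a, which encodes p16 and p19Arf, was higher with NanogBiD at D5 by 1.38 (SE 0.26, adjusted p = 0.00084). Under the limit of 1 before D7, Cdkn1a was lower with NanogBiD by -0.56 at D1, -0.70 at D3 and -0.42 at D5. The limma adjusted p was 0.025, 0.0019 and 0.038, and no other inhibitor passed the p under the limit at D0 to D5. No inhibitor was called at D7. Under the limit of 1 at that day, Cdkn2a was higher by 0.84 (limma adjusted p = 0.020). Cdkn1c, Cdkn2b and Cdkn1a were lower, by -0.79, -0.76 and -0.38 (limma adjusted p = 0.0047, 0.039 and 0.040). At D10, Cdkn2b, the p15 inhibitor of Cdk4 and Cdk6, and Cdkn1a, the p21 inhibitor, were lower, by -2.68 and -1.11. Under the limit at D10, Cdkn2a was lower by -0.86 (limma adjusted p = 0.0087). Cdkn1b and Cdkn1c were higher by 0.63 and 0.55 (limma adjusted p = 0.0090 and 0.023). At D12 Cdkn2b was the 1 called, with means of 6.14 FPKM with NanogBiD and 28.7 with NanogWT and a difference of -2.05 (SE 0.27, adjusted p = 2.9e-06). Under the limit of 1 at D12 were Cdkn1b, the p27 inhibitor, higher by 0.91 (adjusted p = 0.00052), and Cdkn1a and Cdkn2a, lower by -0.72 (adjusted p = 0.00018) and -0.68 (adjusted p = 0.035). From D7 to D12 with NanogBiD, Cdkn1b and Cdkn1c, the p57 inhibitor, were higher by 1.5 and 1.88 (limma adjusted p = 2.5e-06 and 1.8e-07). The change over these days differed between the combinations for 4 inhibitors, higher with NanogBiD for Cdkn1b (1.2) and Cdkn1c (1.08) and lower for Cdkn2a (-1.52) and Cdkn2b (-1.29). In iPSC against MEF, Cdkn1c (-3.96), Cdkn2b (-3.09) and Cdkn2c (-2.31) were lower, beside 14.6% of all genes.

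The cell type markers were also counted by gene, beside 5.79% higher and 4.65% lower of all genes at D7 and 13.5% and 9.97% at D12. Of 10 fibroblast markers, 4 were lower with NanogBiD at D7 and 10 at D12, led by Lum (-1.57) and Thy1 (-1.47) at D7 and by Thy1 (-3.92) and Twist1 (-3.74) at D12, and their summed level was 3010 to 3468 FPKM with NanogWT and 302 to 445 with NanogBiD at D12. Of 10 pluripotent cell markers, 9 were higher with NanogBiD at D7 and 10 at D12, led by Tdgf1 (4.78) and Sox2 (3.31) at D7 and by Dppa3 (4.06) and Tdgf1 (3.94) at D12, with sums of 182 to 260 with NanogWT and 1388 to 2452 with NanogBiD at D12. With NanogWT at D7, 3 of these 10 were at 0 in both samples. At D5, before the step in the 49 genes, the summed fibroblast markers were already 1669 to 1695 with NanogWT and 1008 to 1067 with NanogBiD. The pluripotent markers were at 10.9 to 11.9 and 49.9 to 55.6. Postn made up most of these fibroblast sums, at means of 1001 and 710.6 FPKM beside 135 in MEF, so the sums largely follow this gene.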

How the data were processed

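RNA-seq values came from a gene table (31 time-course, 2 MEF and 1 mES samples) and a transcript table (12 iPSC samples, with MEF and mES). The FPKM values deposited by the authors were made, per the submitters' processing notes, with Trim Galore 0.6.4, HISAT2 2.2.1 (mm10) and StringTie 2.2.1. Annotation, use of strand and read totals are not given in the sources used here, so precision rests on the replicates. GFOLD comparisons by the authors were not used.

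Transcripts were summed by symbol. Genes that reached 1 FPKM in 2 or more samples were fitted on log2(FPKM + 1) with limma 3.58.1 in R 4.3.3, with 1 spread for all groups of a table and the line as a covariate for iPSC. On this scale changes of weakly expressed genes come out too small. A call needed a Benjamini-Hochberg adjusted p under 0.05 over all genes tested, together with a log2 difference of 1 or more in either direction. The scripts were tested on simulated data.

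The 49 genes and all lists were chosen with earlier results of these data known. Values in every sample are given for the 7 G1 and G1/S genes and for the gene of each other role with the highest mean over the time course, and promoters for the licensing and S to M cyclin genes so chosen. The 3 called genes with the largest difference in each direction are named per comparison (2 for the other lists, at D7 and D12). Other genes, Mybl2's sample values and the comparisons of D7 with D5 were chosen after the values were seen. Positions are from GENCODE M21 (GRCm38) and promoters from RefSeq (GRCm38.p6). Alternatives were a pseudocount of 0.1, no filter, a common total, quantile normalization, no limit on the difference, a replicate block, the compared groups alone, leaving out each sample (in iPSC, NanogBiD iPSC1 sample 9), no line covariate, and NanogWT iPSC1 samples 1 and 1-2 averaged.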

Additional observations from a re-analysis of the deposited data

Results flagged for a closer look

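In the iPSC, 11 of 98 sets of 1 gene in 6 samples held a sample far from the other 5 by Dixon's test, which chance gives in about 1 of 20 sets. Ccnd2, cyclin D2, was at 38.4 FPKM in NanogBiD iPSC1 sample 9 beside 0.187 to 3.27 in the other 5, and at 10.1 in NanogWT iPSC1 sample 3 beside 0.287 to 3.77. These 2 samples also had the highest summed fibroblast markers of the iPSC samples, 1419 and 446.5 FPKM. Sample 9 was low in the mitotic cyclin Ccnb2 as well, at 50.8.

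Among the NanogWT iPSC, sample 5 of line 2 was high in E2f1 (29.1), E2f2 (4.36) and the spindle motor Kif11 (32.0) and low in Cdk6 (1.79). Sample 6 of line 2 was high in the helicase gene Mcm3 (199.6) and the checkpoint gene Bub1b (63.0). Sample 2 of line 1 was low in the mitotic genes Plk1 (58.4) and Cdc20 (98.3). Lines and passages cannot be told apart.

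The change from D0 to D7 differed between the combinations for 18 of the 49 genes, that from D7 to D12 for 3, and that from D5 to D7 for 5, by limma's test of the difference between the changes. The D7 to D12 changes include libraries of unequal depth.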

How the results depend on the processing

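At D7, D10 and D12, 24 to 34, 36 to 41 and 34 to 40 genes were called in all when single samples were left out. No alternative reversed the value of a gene named for a comparison. The direction of the other called genes was not compared gene by gene. Replicate numbers had no stated meaning (pairing correlations of -0.0647 to 0.395 by day), and a replicate block moved 1 count by over 1.5 times, the D5 to D7 difference in change, from 5 to 8 genes.

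Other counts moved as follows, and the cause was not tested. Without the limit on the difference, which admits smaller changes by construction, D3 gave 3 and D5 gave 5 genes, D7 against D0 14 with NanogWT and 23 with NanogBiD, D12 against D7 8 and 23, D7 against D5 with NanogBiD 28, the D7 to D12 difference in change 6, D0 against MEF 10 and 8, and line 2 against line 1 in iPSC 1. With the compared groups alone, which leaves fewer samples for the spread, D3 gave 0, D5 1, D7 against D0 with NanogWT 2, D7 against D5 with NanogBiD 0, the differences in change from D0 to D7 8 and from D5 to D7 3, and D0 against MEF 0 and 1. Fitted in that way, D3 and D7 against D5 with NanogBiD also gave 0 calls over all genes. Quantile normalization gave 1 at D5, 9 for D7 against D0 with NanogWT, 8 for the D5 to D7 difference in change and 1 for D0 against MEF with NanogBiD. A pseudocount of 0.1 gave 8 and a common total 2 for D7 against D0 with NanogWT, and the pseudocount 1 for the D5 to D7 difference in change.

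Leaving out single samples gave 0 to 1 genes at D3, 1 to 3 at D5, 3 to 9 for D7 against D0 with NanogWT and 9 to 13 with NanogBiD, 1 to 3 and 4 to 10 for D12 against D7, 10 to 17 for D7 against D5 with NanogBiD, 9 to 22, 1 to 4 and 0 to 6 for the differences in change from D0 to D7, D7 to D12 and D5 to D7, and 2 to 6 and 1 to 2 for D0 against MEF. Of the values of single named genes, 25 of 346 under other settings and 51 of 224 without a sample lost their call.

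Quantile normalization moved the median log2 change of all genes from 0.12 to -0.05 for D7 against D0 with NanogWT and from 0.24 to -0.01 with NanogBiD, and a common total moved that of iPSC against MEF from 0.31 to 0.12, where 31 of the 49 genes were then called. Between the combinations, quantile normalization called 820 of all genes higher and 923 lower at D7, against 975 and 783, and 1945 and 1966 at D12, against 2267 and 1679.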
